A study of Mus musculus with 42 samples.

Results

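The uterus of mice that had lost 1 copy of Hoxa9,10,11 on a background already lacking Hoxd9,10,11 was compared with the uterus of mice lacking Hoxd9,10,11 alone. The tested genotype is Hoxa9,10,11+/-d9,10,11-/- (called AHDK below, with 1 wild type Hoxa copy and 0 wild type Hoxd copies), and the genotype it is set against is Hoxd9,10,11-/- (DKO, with 2 wild type Hoxa copies and 0 wild type Hoxd copies). Both groups therefore lack Hoxd9,10,11, and the one genotype difference between them is a Hoxa9,10,11 copy. Each group has 3 arrays, so 6 of the 42 arrays in the series carry the comparison. The fit also holds 9 other uterus arrays, 3 each of AKDH (Hoxa9,10,11-/-d9,10,11+/-, with 0 Hoxa copies and 1 Hoxd copy), AKO (Hoxa9,10,11-/-) and wild type (WT). All were adult CD1/129 females aged 3 to 7 months, staged and collected in diestrus, a progesterone-dominated phase of the cycle, and RNA came from the whole uterus. The titles mark the 3 arrays within each genotype as biological replicates without saying how the animals were chosen, and p-values rest on the scatter among these arrays. The labels name no tissue-specific driver for the mutations and do not say what the mutant alleles change.

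Hox9 to Hox11 genes encode transcription factors that give the parts of the reproductive tract their identity along its length. In mice, Hoxa10 and Hoxa11 in the uterine stroma are known for their part in gland formation, in implantation and in the decidual response of the stroma to progesterone. The Hoxa and Hoxd genes of one number are paralogs that can stand in for each other in part, which is why an allele of one cluster is studied on a background lacking the other.

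Every value below is a log2 value relative to the middle one of the 21 female arrays for that probe set, as the deposited table was centred in that way. Values can be compared between arrays for 1 gene, but they say nothing of whether a gene is abundant, and no level is compared between genes. The log base, which no label states, is taken as 2, so differences are given as log2 differences and not as folds. Differences are AHDK minus DKO, with the standard error (SE) from limma over the 15 uterus arrays, n = 3 arrays a group. A gene was called where its Benjamini-Hochberg adjusted p over all 19938 genes was below 0.05. The labelled tissue was checked against markers. The mean of 15 motile cilia and oviduct genes lay between -0.20 and 0.05 in the 15 uterus arrays, against 3.38 to 3.77 in the 6 oviduct arrays.

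Of the 19938 genes, 5 were called, which is 0.0251%. Kap and Smpd3 rose in AHDK uterus (0.01% of all genes), and Rxfp2, Slc26a7 and Cldn8 fell (0.015%). At an unadjusted p below 0.05 there were 1489 genes, or 7.47% of all genes, with 590 higher (2.96%) and 899 lower (4.51%) in AHDK. Quantile normalization of the arrays turned that split round, to 3.85% higher and 3.33% lower. The median difference over all genes was -0.03, with 7540 genes above 0 and 12398 below. The 3 AHDK and 3 DKO arrays did not overlap in 3091 genes (15.5%), of which 1118 were higher (5.61%) and 1973 lower (9.9%). Seen against WT in the same fit, AHDK had 704 called genes (3.53%) and DKO had 194 (0.973%). Both counts use the same WT arrays. The mean of 353 small RNA genes, a sign of RNA quality, was 0.29, 0.20 and 0.23 in WT, above every AHDK, DKO and AKO array (-0.07 to 0.18), and its part in the comparisons with WT was not tested. AHDK had 199 called genes against AKO (0.998%) and 343 against AKDH (1.72%), and these use the same AHDK arrays.

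DKO array 1 stood apart from the other DKO arrays in several of the gene groups described below, where it lay close to the AHDK arrays. In other groups DKO array 3 stood apart. The mean of the luminal epithelium genes, for example, was -0.12, -0.11 and -0.64 in the DKO arrays. Without DKO array 1, 71 genes were called (44 higher, 27 lower), and all 5 calls were among them. Without AHDK array 1 the count was 2, without AHDK array 3 it was 1, without DKO array 2 it was 1, and without DKO array 3 it was 2. Rxfp2 was called in each of these fits.

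**Figure D1:**
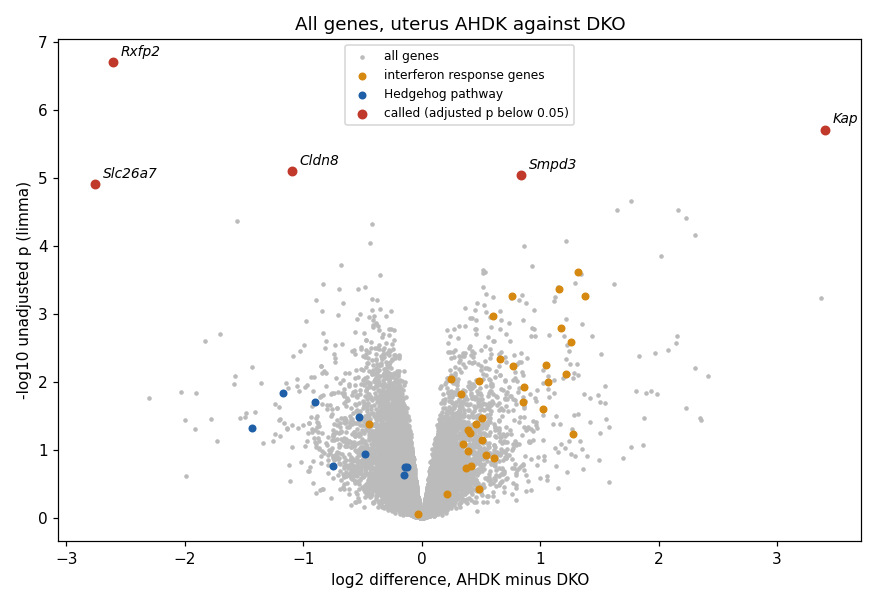
Each point is 1 of the 19938 genes in uterus, with the log2 difference AHDK minus DKO on the horizontal axis and -log10 of limma's unadjusted p on the vertical axis. The 5 called genes are named in red, most interferon response genes (orange) lie to the right of 0, and all 9 Hedgehog pathway genes (blue) lie to the left. Of all genes, 62.2% lie to the left.

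Rxfp2 encodes the receptor for insulin-like peptide 3, known in mice for its part in the descent of the testis. Its values were 0, -0.13 and 0.03 in the AHDK arrays, against 1.99, 3.25 and 2.47 in the DKO arrays. The lowest DKO array stood well above the highest AHDK array. The difference was -2.60 (SE 0.25, 95% interval -3.14 to -2.07, limma adjusted p = 0.00391). DKO did not differ from WT beyond the test's threshold (DKO minus WT -0.22, adjusted p = 0.736), and the WT arrays read 3.06, 2.61 and 2.69. AHDK did not differ beyond the threshold from the uteri with no wild type Hoxa copy. AHDK minus AKO was -0.04 (95% interval -0.58 to 0.50, adjusted p = 0.951), and AHDK minus AKDH was 0.49 (95% interval -0.05 to 1.03, adjusted p = 0.373). In AKO uterus Rxfp2 also fell against WT (-2.78, SE 0.25, adjusted p = 0.00187). By their means the 5 genotypes formed an upper pair, WT and DKO, and a lower set of 3, AHDK, AKO and AKDH. The interval for AHDK minus AKDH does not show that those levels were equal. Of the 8 measured members of the relaxin family of hormones and receptors, Rxfp2 was the 1 that was called, and the median difference of the family was 0.01.

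Slc26a7, an anion transporter of epithelia, showed a like pattern. It read -0.41, 0.49 and 0.30 in AHDK, against 2.39, 3.89 and 2.37 in DKO. No AHDK array came near a DKO array. The difference was -2.76 (SE 0.39, 95% interval -3.61 to -1.91, limma adjusted p = 0.0495). WT uteri read 2.17, 1.03 and 1.82, below the DKO arrays, though DKO minus WT (1.21) was not called (adjusted p = 0.158). AHDK minus AKO was 0.61 (95% interval -0.23 to 1.46) and AHDK minus AKDH was 0.64 (95% interval -0.21 to 1.49), and neither was called (adjusted p = 0.444 and 0.484). The call of Slc26a7 sits at the edge of the threshold, and it was lost in 10 of 16 alternative settings or left-out arrays, counted below for all 5 genes.

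Cldn8, a claudin of epithelial tight junctions, fell in both steps. It read -1.69, -1.30 and -1.32 in AHDK, against -0.39, -0.34 and -0.30 in DKO. The DKO arrays lay within 0.1 of each other and above every AHDK array. The difference was -1.09 (SE 0.15, 95% interval -1.42 to -0.77, limma adjusted p = 0.0454). Against WT arrays of 0.66, 0.57 and 0.29, Cldn8 was already lower in DKO (DKO minus WT -0.85, adjusted p = 0.0361). AHDK was also below the uteri without a Hoxa copy, by -1.18 against AKO (adjusted p = 0.0158) and -1.35 against AKDH (adjusted p = 0.00448). Cldn8 was thus lowest in AHDK among the 5 genotypes, unlike Rxfp2 and Slc26a7, whose AHDK values did not differ from AKO beyond the threshold.

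Kap, the kidney androgen-regulated protein gene, is known in mice for its induction by androgens in the kidney. It read 4.30, 3.88 and 4.75 in AHDK, against 1.92, 0.82 and -0.02 in DKO. The groups did not overlap, and the DKO arrays were the more spread. The difference was 3.40 (SE 0.40, 95% interval 2.53 to 4.28, limma adjusted p = 0.0195), the largest positive difference of all genes tested. AKDH averaged 0.19, AKO 0.01 and WT -0.003. AHDK exceeded AKO by 4.30 (adjusted p = 0.00316) and AKDH by 4.11 (adjusted p = 0.00264), while DKO minus WT was 0.91 and not called (adjusted p = 0.307). High Kap was therefore seen in AHDK uterus and in no other uterus genotype of the series at that level. Of the 5 called genes, Kap alone lies on chromosome 6, where the Hoxa cluster also lies, but not within 20 Mb of the cluster. None of the 318 measured genes within 20 Mb of the cluster was called, and 6.29% of them had an unadjusted p below 0.05, against 7.47% of all genes.

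Smpd3, neutral sphingomyelinase 2, which makes ceramide from sphingomyelin, read 0.67, 0.65 and 0.46 in AHDK, against -0.04, -0.25 and -0.44 in DKO. All AHDK arrays were above all DKO arrays. The difference was 0.84 (SE 0.11, 95% interval 0.59 to 1.09, limma adjusted p = 0.0454). WT uteri read -0.41, -0.33 and -0.50, and AHDK minus WT was 1.01 (adjusted p = 0.0034). AHDK was above AKDH (0.76, adjusted p = 0.014), and its difference from AKO (0.47) was not called (adjusted p = 0.0726).

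Over 16 alternatives, which comprise 10 other settings of the fit and 6 fits that each leave out 1 array, Rxfp2 was called in 14, Kap in 12, Cldn8 in 8, Smpd3 in 7 and Slc26a7 in 6. None of the 5 differences turned its sign. Leaving out 1 array in turn kept the call of Rxfp2 in 6 of 6 fits and of Kap in 3 of 6, and of each of the other three in 1 of 6, the fit without DKO array 1. Each gene is read by 1 probe set, 10527713 for Rxfp2, 10511631 for Slc26a7, 10440647 for Cldn8, 10548692 for Kap and 10581479 for Smpd3.

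**Figure D2:**
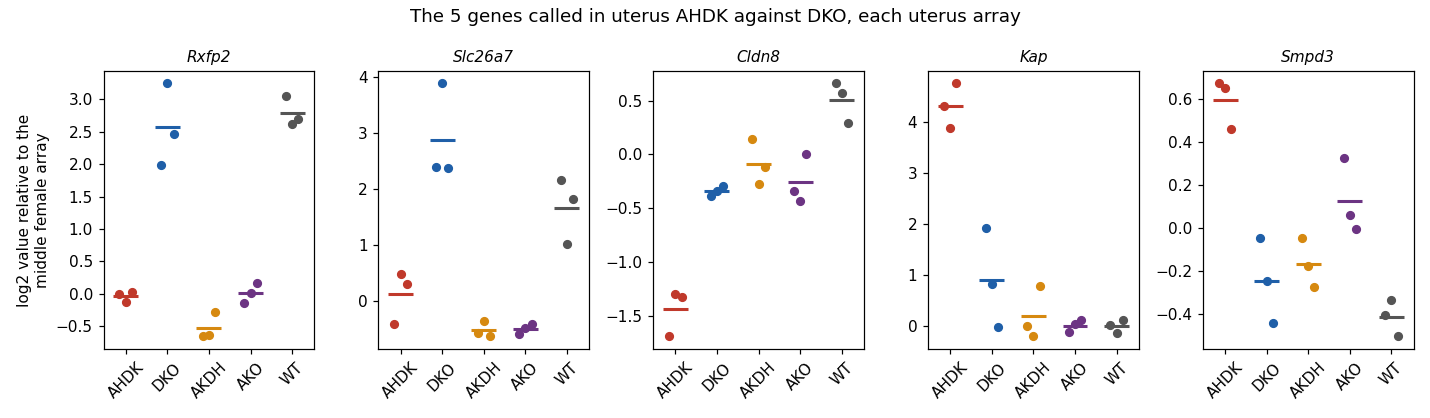
Log2 values relative to the middle female array for the 5 called genes, 1 point for each of the 3 arrays of a genotype and a line at the mean, with genotypes along the horizontal axis in the order AHDK, DKO, AKDH, AKO and WT. Rxfp2 and Slc26a7 are high in DKO and WT and low elsewhere, Cldn8 is lowest and Kap highest in AHDK.

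The start regions of Rxfp2 and Kap, the called genes with the lowest p, are shown because Hox9 to Hox11 proteins are DNA-binding factors. Slc26a7, Cldn8 and Smpd3 were not among the promoters used here, so their start regions were not searched. The sequences are RefSeq promoters of assembly GRCm38.p6, the 250 bases before the start of each gene, 5′ to 3′ on the gene's strand. Capitals mark TTTAT or its complement ATAAA, a core that posterior Hox proteins are known to bind.
Rxfp2, chr5:150018425-150018674, plus strand: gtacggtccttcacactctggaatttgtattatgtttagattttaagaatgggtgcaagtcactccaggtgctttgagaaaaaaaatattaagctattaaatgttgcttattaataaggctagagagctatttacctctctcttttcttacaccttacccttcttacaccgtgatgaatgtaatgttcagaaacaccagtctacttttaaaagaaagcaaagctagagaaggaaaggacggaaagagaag
Kap, chr6:133853668-133853917, minus strand: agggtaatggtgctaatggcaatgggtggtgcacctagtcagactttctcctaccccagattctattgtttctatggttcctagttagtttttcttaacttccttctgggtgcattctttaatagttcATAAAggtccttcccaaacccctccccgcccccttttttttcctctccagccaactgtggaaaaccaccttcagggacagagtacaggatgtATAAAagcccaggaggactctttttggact
The 250 bases of Rxfp2 hold 0 matches. Those of Kap hold 2, which begin 122 and 30 bases before the start, and the nearer one overlaps the letters TATAAA of a TATA box. TTTAT on either strand occurs in 37.3% of the 32851 promoters of that length, so a match is common.

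The targeted genes themselves were not called. Hoxa11 read 0.94, 1.28 and 1.70 in AHDK, against 1.81, 2.01 and 2.65 in DKO. The groups did not overlap, and the difference was -0.85 (SE 0.56, limma adjusted p = 0.768). Hoxa11 averaged lower still in the uteri without a Hoxa copy, by 1.81 in AKO and 2.03 in AKDH relative to AHDK (adjusted p = 0.137 and 0.0922). Hoxa10 read 0, 0.32 and 0.21 in AHDK, against 0.37, 0.38 and 0.79 in DKO, also without overlap (-0.33, SE 0.44, adjusted p = 0.913). Hoxa9 overlapped between the groups (-0.03, SE 0.38, adjusted p = 0.996), and its sign turned in 5 of the 16 alternatives. The Hoxd genes, mutant in both groups, differed by 0.10 for Hoxd9, -0.05 for Hoxd10 and -0.67 for Hoxd11 (adjusted p = 0.97, 0.99 and 0.699). DKO did not differ from WT in any of them beyond the threshold, with differences between -0.17 and 0.18. No source used here gives the place of the probe sets relative to the mutations, so these values do not test the genotypes.

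Among the 33 other Hox genes measured, 4 were higher in AHDK at an unadjusted p below 0.05 (2.96% of all genes were), 0 were lower, and none was called. The count of 4 was between 2 and 4 when each array was left out, and 2 after quantile normalization. All 4 belong to the HoxC cluster. Hoxc10 read 1.07, 0.97 and 0.76 in AHDK, against -0.36, -0.22 and -0.27 in DKO. The groups were more than 0.9 apart at their nearest arrays, and the difference was 1.21 (SE 0.29, limma adjusted p = 0.336). Hoxc8 read -0.43, -0.50 and -0.70 in AHDK, against -1.45, -1.25 and -1.04 in DKO (0.70, SE 0.23, adjusted p = 0.503). Both genes rose in AKO uterus against WT, by 1.86 for Hoxc10 (adjusted p = 0.0366) and 1.46 for Hoxc8 (adjusted p = 0.0419). The AKO and WT arrays do not enter the AHDK minus DKO difference, but the same fit's estimate of the spread uses them. AHDK minus AKO was -0.11 for Hoxc10 (95% interval -0.74 to 0.51, adjusted p = 0.877) and -0.63 for Hoxc8 (95% interval -1.13 to -0.13, adjusted p = 0.188). The median difference over the 33 genes was 0.04.

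Genes of the interferon response, which cells switch on after sensing viral nucleic acid or interferon, had the largest share of higher members among the lists examined. Of 34 measured, 20 were higher in AHDK at an unadjusted p below 0.05, against 2.96% of all genes, and 1 (Cxcl9) was lower. Of the 34, 32 lay above 0, as did 7540 of the 19938 genes tested. The median difference was 0.57, against -0.03 over all genes. No member was called in the main fit of the 15 uterus arrays, and 1 was called with all 21 female arrays. The unadjusted p-values of the members are not independent of each other. The mean of the 34 genes was 0.78, 0.69 and 0.80 in the AHDK arrays, against 0.57, 0.05 and -0.34 in the DKO arrays. WT uteri lay at 0.07, 0.07 and 0.13. The AHDK arrays were close together, DKO array 1 lay just under them, and DKO array 3 was the lowest of the 15 uterus arrays. Without DKO array 1, 26 members were higher at an unadjusted p below 0.05 and 8 were called, among them Rsad2, Ifit1, Irf7, Oasl1 and Oas3. Without DKO array 3, 12 were higher and none was called. With array weights 21 were called, and that fit gave DKO array 1 a weight of 0.468 and AHDK array 1 a weight of 3.35.

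Oasl1, an inhibitor of interferon production in mice, read 1.54, 1.39 and 1.67 in AHDK, against 0.70, 0.27 and -0.33 in DKO (1.32, SE 0.26, limma adjusted p = 0.219). Oas3, an enzyme that makes 2-5A from ATP and so activates RNase L, read 1.74, 1.33 and 1.71 in AHDK, against 0.89, 0.41 and 0 in DKO (1.16, SE 0.24, adjusted p = 0.262). In both genes the groups did not overlap. Further members were named after their values were seen. Zbp1, a sensor of Z-form nucleic acid, differed by 1.37 (adjusted p = 0.279), Irf7, the factor that amplifies interferon genes, by 1.26 (adjusted p = 0.413), Rsad2, which encodes viperin, by 1.18 (adjusted p = 0.356) and Stat2, a subunit of the complex that carries the interferon signal to the nucleus, by 0.60 (adjusted p = 0.332). Oas1a differed by 0.77 (adjusted p = 0.279), but the Oas1 genes are near-identical copies, and how far their probe sets tell them apart was not tested. The list's median was 0.03 for DKO minus WT and 0.12 for AHDK minus DKO in vas deferens. The mean of 27 macrophage, dendritic cell and MHC class II genes lay in the same direction with overlap, at 0.90, 0.75 and 0.49 in AHDK, against 0.77, 0.23 and 0.44 in DKO. Of these 27, 23 were above 0, as were 7540 of the 19938 genes tested. Of the 27, 1 (Cd14) had an unadjusted p below 0.05, as did 7.47% of all genes. Without DKO array 1 there were 8 such members, and without AHDK array 3 there were 5. Their part in the interferon genes was not tested. In bulk tissue, fewer cells of a type and less RNA per cell cannot be told apart.

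**Figure D3:**
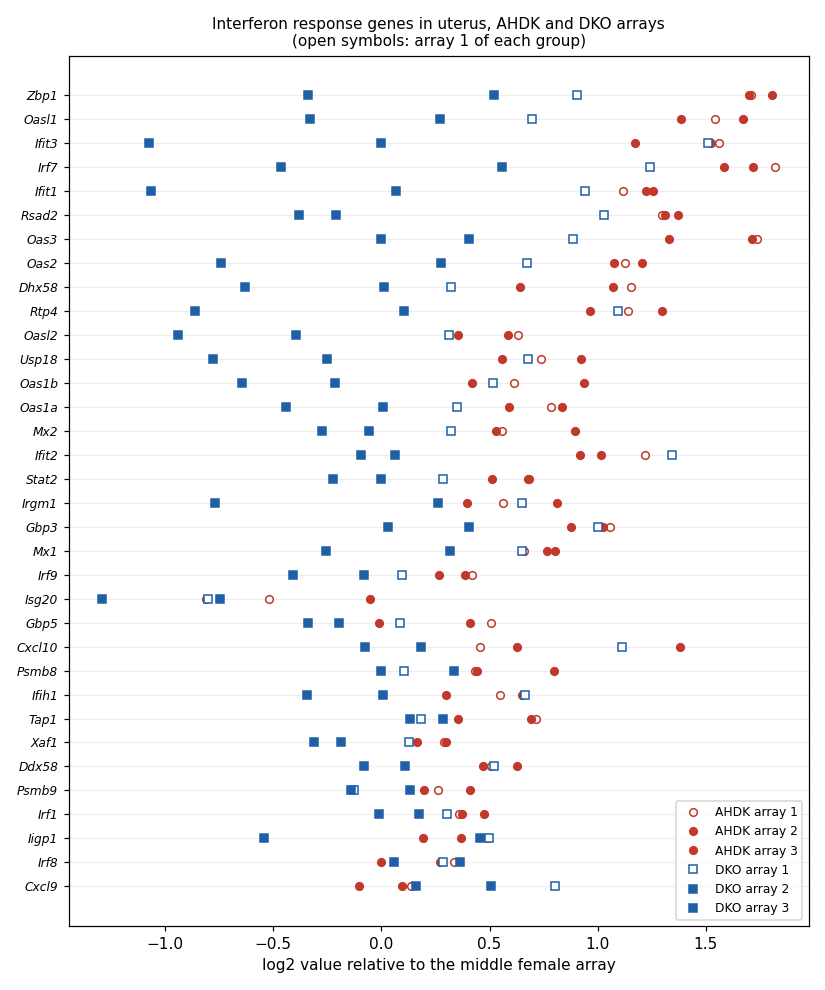
The 34 interferon response genes, 1 row a gene, ordered by AHDK minus DKO with the largest at the top, and on the horizontal axis the log2 value relative to the middle female array in the 3 AHDK (red circles) and 3 DKO (blue squares) arrays. Array 1 of each group is open, and the open square of DKO array 1 lies nearer to the AHDK circles than the other DKO squares in most rows.

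The start regions of Oas3 and Oas1a are shown as list members that lay higher and hold the motif marked here. Oasl1 and Irf7, also named above, hold no match in their 250 bases. Capitals mark GAAA, any 2 bases and GAAA, the core of the interferon-stimulated response element, searched on both strands in the 250 bases before the start (RefSeq, GRCm38.p6).
Oas3, chr5:120777660-120777909, minus strand: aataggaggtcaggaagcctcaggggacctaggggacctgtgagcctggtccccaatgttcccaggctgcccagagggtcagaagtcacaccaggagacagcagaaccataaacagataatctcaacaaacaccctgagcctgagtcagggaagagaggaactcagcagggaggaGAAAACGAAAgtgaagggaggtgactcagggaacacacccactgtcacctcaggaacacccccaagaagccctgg
Oas1a, chr5:120907526-120907775, minus strand: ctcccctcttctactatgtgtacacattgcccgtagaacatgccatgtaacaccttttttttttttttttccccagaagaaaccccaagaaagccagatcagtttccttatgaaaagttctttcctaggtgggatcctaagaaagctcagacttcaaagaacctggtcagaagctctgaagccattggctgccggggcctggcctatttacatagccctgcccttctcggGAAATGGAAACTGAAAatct
Oas3 holds 1 match, beginning 75 bases before the start. Oas1a holds 2 that overlap each other, beginning 20 and 14 bases before it. Of the 25 list members in the promoter table, 10 hold the motif, as do 7 of the 13 that were higher at an unadjusted p below 0.05, against 2.98% of the 32851 promoters. Interferon genes are known by this element, and the share describes the list, not AHDK.

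Genes of the uterine luminal epithelium, the cell layer that lines the lumen, had a positive median difference, and those of the endometrial stroma a negative one. Of 19 epithelial genes, 8 were higher at an unadjusted p below 0.05 (2.96% of all genes were), 0 were lower, 0 were called, and the median difference was 0.59. Their mean was 0.16, 0.18 and 0.23 in AHDK, against -0.12, -0.11 and -0.64 in DKO, without overlap, and the count was between 4 and 8 when each array was left out. Cldn4, a claudin of luminal epithelium, read 1.14, 1.40 and 0.99 in AHDK, against 0.41, -0.06 and -0.27 in DKO (1.15, SE 0.24, limma adjusted p = 0.262). Krt8, a keratin of simple epithelia, read 0.21, 0.36 and 0.06 in AHDK, against -0.29, -0.29 and -0.55 in DKO (0.59, SE 0.14, adjusted p = 0.356). Uterine gland genes, 15 measured, had a median of -0.16, with 3 higher and 3 lower at an unadjusted p below 0.05 and 0 called. When each array was left out, 0 to 3 gland genes were higher and 1 to 4 lower. Of 18 stromal genes, 1 was lower at an unadjusted p below 0.05, a share near that of all genes (4.51%). Of the 18, 15 lay below 0, where 62.2% of all genes lay, and the median was -0.50. Without DKO array 2 the median was -0.28 and without DKO array 3 it was -0.34. Their mean was 0.19, 0.22 and 0.16 in AHDK, against 0.22, 0.76 and 0.80 in DKO, where DKO array 1 again lay beside the AHDK arrays. Of 24 smooth muscle genes none had an unadjusted p below 0.05 and the median was -0.21, which became -0.11 without AHDK array 3 and -0.07 without DKO array 3. The shares of epithelium, stroma and muscle in the pieces of tissue were not measured, and their part in the results was not tested.

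Keratins and claudins share some of these epithelial genes. Of 21 keratins, 6 were higher at an unadjusted p below 0.05 (4 without AHDK array 1 and 4 without DKO array 3) and 0 were lower. Over all genes 2.96% were higher and 4.51% lower, which holds for each list in this paragraph. Krt20, a keratin of intestinal and bladder lining, read 2.66, 1.74 and 2.62 in AHDK, against 0.68, -0.14 and -0.21 in DKO (2.23, SE 0.35, limma adjusted p = 0.0847). Of 24 claudin and tight junction genes, 6 were higher and 1, the called Cldn8, was lower. Cldn8 and Cldn4 therefore differed in opposite directions in the same arrays. Of 24 ion and water transport genes, 5 were higher, and 2 were lower, Slc26a7 and Scnn1a, a subunit of the epithelial sodium channel that was named after its values were seen (-0.89, adjusted p = 0.659). Slc5a1, a sodium-glucose transporter, lay 1.29 higher (SE 0.26, adjusted p = 0.262).

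Through the Hedgehog pathway, epithelial Indian hedgehog signals to the uterine stroma. All 9 measured genes of the pathway lay below 0, where 62.2% of all genes lay, and their median was -0.53. At an unadjusted p below 0.05, 4 were lower (4.51% of all genes were), 0 were higher, and none was called. Gli1, a target and effector of the pathway, read -0.77, -0.05 and -0.33 in AHDK, against 0, 1.07 and 1.30 in DKO (-1.17, SE 0.41, limma adjusted p = 0.524). Ptch1, the receptor and also a target, read -0.99, -0.93 and -0.88 in AHDK, against -0.65, 0.10 and 0.44 in DKO (-0.90, SE 0.33, adjusted p = 0.554). In both, DKO array 1 was the lowest DKO array and still above every AHDK array. The ligand Ihh, named after its values were seen, overlapped between the groups (-0.75, adjusted p = 0.777). The count of 4 became 0 without DKO array 2, 0 without DKO array 3 and 6 without DKO array 1. The list's median was 0.04 for DKO minus WT.

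Other signalling groups had smaller shares of such genes. Of 37 Wnt pathway genes, 2 were higher and 2 lower at an unadjusted p below 0.05. The shares over all genes were 2.96% higher and 4.51% lower, to be set beside each count in this paragraph. Wnt5a, a ligand made by uterine stroma, read -0.79, -0.48 and -0.56 in AHDK, against -0.19, 0.73 and 0.57 in DKO (-0.98, SE 0.24, limma adjusted p = 0.343). Lef1, a nuclear factor of the pathway, read 0.28, 0.24 and 0.46 in AHDK, against 0.81, 0.56 and 1.90 in DKO (-0.76, SE 0.31, adjusted p = 0.628). Of 27 BMP and TGF-beta genes, 3 were lower and 0 higher, Bmp7 among them (-0.77, SE 0.27, adjusted p = 0.524). Aldh1a2, which makes retinoic acid in stroma, differed by -0.66 (SE 0.23, adjusted p = 0.526), and it was 1 of 2 lower genes among 15 of retinoic acid handling.

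Hormone-linked genes were mixed. Of 21 oestrogen-responsive uterine genes, 5 were higher and 1 lower at an unadjusted p below 0.05, with a median of 0.41 that became 0.18 without DKO array 3. Over all genes 2.96% were higher and 4.51% lower, also to be set beside the progesterone-responsive genes. Sprr2e, a small proline-rich protein gene, read 0.83, 0.62 and 0.98 in AHDK, against -0.13, 0.07 and -0.31 in DKO (0.93, SE 0.18, limma adjusted p = 0.219), and the Sprr2 genes are close copies of each other. Of 21 progesterone-responsive genes, 1 was higher and 2 were lower, with a median of -0.22. Without DKO array 3 that median turned to 0.11 with 0 higher and 0 lower, and without AHDK array 1 it was -0.11. Hsd17b2, which oxidises oestradiol to the weaker oestrone, read 1.34, 1.20 and 1.35 in AHDK, against -0.02, -0.45 and -0.57 in DKO (1.64, SE 0.25, adjusted p = 0.0751). Its AHDK arrays lay within 0.2 of each other and more than 1.2 above the DKO arrays. Hsd11b2, which inactivates glucocorticoid and is stromal and progesterone-responsive in these lists, overlapped between the groups (-1.91, SE 0.67, adjusted p = 0.524). Of 29 cell cycle genes none had an unadjusted p below 0.05.

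Of 18 interleukin 1 family genes, which encode inflammatory ligands and their receptors, none was called. At an unadjusted p below 0.05, 3 were higher (2.96% of all genes were) and 0 lower, and the median of 0.28 became 0.08 without DKO array 3 and 0.11 without AHDK array 1. The count of 3 was 7 without DKO array 1 and 6 without AHDK array 2. Il1a, an interleukin 1 ligand, read 3.06, 2.47 and 3.17 in AHDK, against 2.12, 0.38 and -0.23 in DKO (2.14, SE 0.57, limma adjusted p = 0.415). Il1f6, a ligand of the same family, read 3.56, 1.75 and 3.61 in AHDK, against 2.12, 0.23 and -0.68 in DKO, with AHDK array 2 below DKO array 1 (2.42, SE 0.76, adjusted p = 0.494). Of 47 chemokines and receptors, 7 were higher and 2 lower, with 3 higher without AHDK array 1, 3 without DKO array 3 and 12 without DKO array 1. Over all genes 2.96% were higher and 4.51% lower, for this list and the 2 that follow. Of 23 neutrophil and eosinophil genes, 0 were higher and 1 was lower, and their mean was 0.96, 0.47 and 0.71 in AHDK, against 1.14, 0.40 and 0.24 in DKO. Among 22 serpins, 4 were higher and 1 lower, and 1 was higher without AHDK array 3 or without DKO array 3. Serpina1c, an alpha-1-antitrypsin gene, read 1.93, 1.65 and 1.90 in AHDK, against -0.12, -1.71 and -2.79 in DKO (3.37, SE 0.73, adjusted p = 0.279), and its family consists of near-identical copies that 1 probe set may not tell apart.

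Among ovary genes, Cyp11a1 stood out in 1 array, with 3.24 in AHDK array 2 and values between -0.15 and 0.12 in the other 5. Hsd3b1, named after its values were seen, read 0.94 in that array and between -0.06 and 0.09 in the others. The other 12 ovary genes of that array lay between -0.18 and 0.46. Without AHDK array 2, 5 genes were called (4 higher, 1 lower), of which 2, Kap and Rxfp2, were among the 5 called in the main fit.

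**Figure D4:**
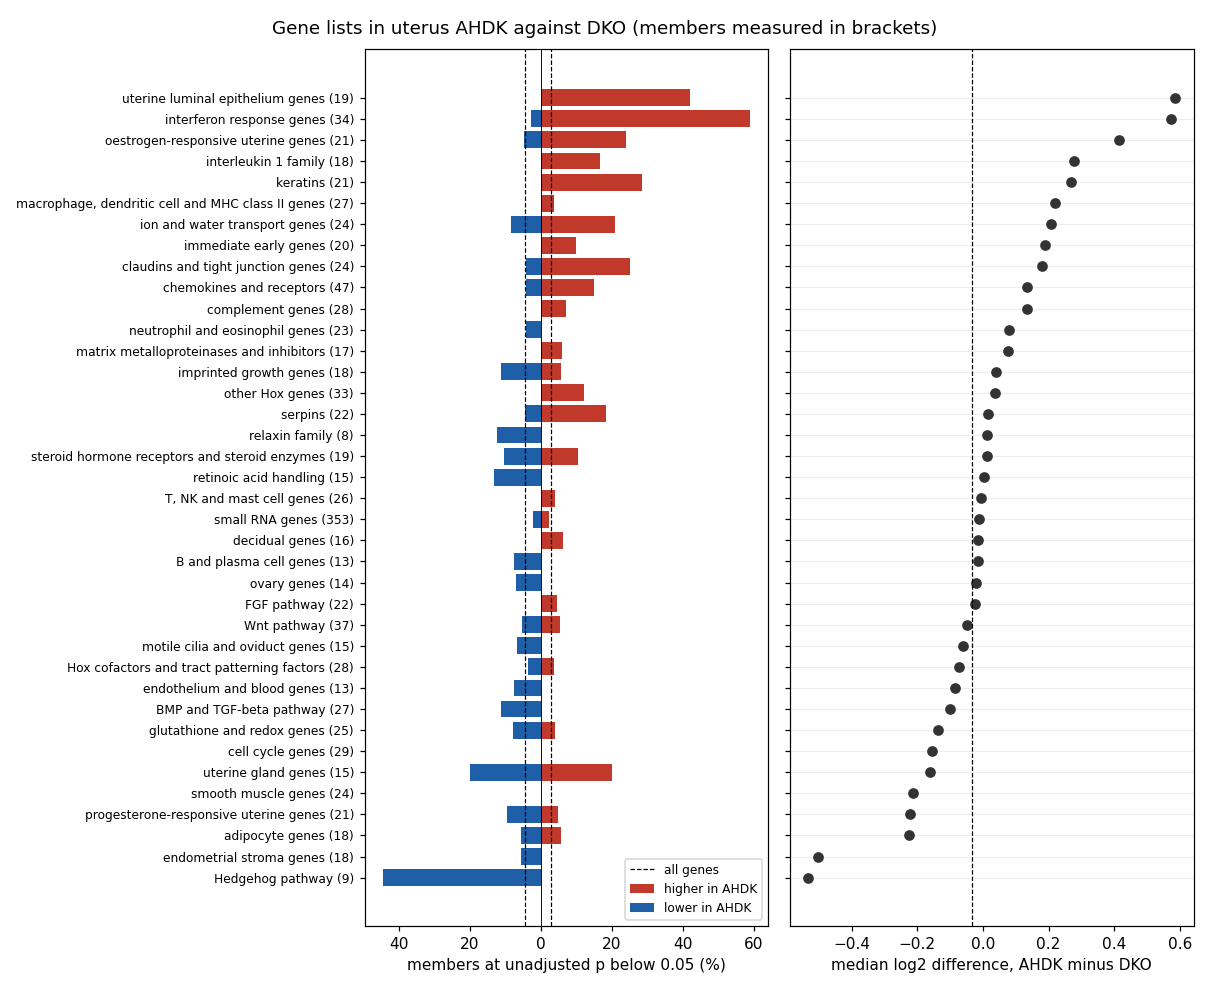
For each of 38 gene lists with at least 8 measured members (number in brackets), the left panel gives the percent of members at an unadjusted p below 0.05, higher (red, to the right) or lower (blue, to the left) in AHDK, and the right panel gives the median log2 difference AHDK minus DKO. Dashed lines give all genes, 2.96% higher, 4.51% lower and a median of -0.03, and in the right panel luminal epithelium and interferon response have the highest medians and endometrial stroma and Hedgehog the lowest.

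Beyond the lists, genes with a difference of at least 1 and no overlap between the groups, ranked by p, gave 13 higher and 12 lower genes that were not called. The 13 higher genes differed by 1.15 to 2.30, with adjusted p between 0.0735 and 0.262. Apobec2, of the cytidine deaminase family, had the lowest p of them. It read 1.36, 1.35 and 1.54 in AHDK, against -0.45, 0.03 and -0.64 in DKO (1.77, SE 0.26, limma adjusted p = 0.0735). Rnf186, an epithelial ubiquitin ligase, read 2.20, 1.86 and 2.01 in AHDK, against -0.07, 0 and -0.34 in DKO (2.16, SE 0.33, adjusted p = 0.0751). Ptgs2, cyclooxygenase 2 of prostaglandin synthesis, read 1.37, 1.26 and 0.53 in AHDK, against -1.09, -1.79 and -0.87 in DKO (2.30, SE 0.39, adjusted p = 0.114). Its WT arrays read 0, 0.44 and 1.07, so that DKO lay below WT (-1.75, adjusted p = 0.0588) and AHDK did not differ from WT beyond the threshold (adjusted p = 0.441). Peg10, an imprinted gene derived from a retrotransposon, read 1.71, 1.44 and 2.07 in AHDK, against 0.03, -0.08 and -0.80 in DKO (2.02, SE 0.37, adjusted p = 0.175). The others were Hsd17b2, Krt20, Trim15, Oasl1, Wfdc8, Slc5a1, Muc13, Cldn4 and Oas3.

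The 12 lower genes differed by -1.03 to -1.83, with adjusted p between 0.0858 and 0.505. Smoc2, a matrix-associated calcium-binding protein, read -0.06, -0.02 and 0.19 in AHDK, against 1.37, 1.85 and 1.57 in DKO (-1.56, SE 0.25, limma adjusted p = 0.0858). AHDK minus AKO was 0.44 for Smoc2 (95% interval -0.10 to 0.99, adjusted p = 0.386). Vcan, the proteoglycan versican, read -0.43, -0.16 and 0 in AHDK, against 0.51, 1.56 and 2.07 in DKO (-1.58, SE 0.52, adjusted p = 0.505). Hapln1, which links such proteoglycans to hyaluronan, differed by -1.05 (SE 0.34, adjusted p = 0.496). Robo2, a receptor for Slit ligands, read 1.14, 1.19 and 1.44 in AHDK, against 2.46, 2.24 and 2.24 in DKO (-1.06, SE 0.35, adjusted p = 0.505). AHDK lay between DKO and AKO for Robo2, whose AKO arrays read -0.06, -0.06 and -0.16. The others were Adam12, Scube1, Srpx2, Tex15, Ajap1, Chrdl2, Aff2 and Smim41.

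The same genes were then read in AKO against WT. These 6 arrays do not enter the AHDK minus DKO differences. They do enter the fit's estimate of the spread, and so the p-values by which the genes were ranked. The counts that follow are therefore a description and not an independent test. Of the 12 lower genes, 11 had a negative AKO minus WT difference, as did 45.8% of all genes, and the median of the 12 was -0.71. There 4 of the 12 had an unadjusted p below 0.05 in that direction, and 1 of these, Robo2, was called. Of the 13 higher genes, 5 had a positive AKO minus WT difference, as did 54.2% of all genes, with a median of -0.14 and none at an unadjusted p below 0.05 in that direction. The 3 called falls all had negative AKO minus WT differences (1 called, Rxfp2), and of the 2 called rises Kap differed by 0.01 there and Smpd3 lay 0.54 higher (adjusted p = 0.101). In AKO against WT 18 genes were called in all (0.0903%). Across all 19938 genes, the AHDK minus DKO and AKO minus WT differences had a Pearson r of 0.19 and a Spearman rho of 0.108, given as a description of genes that share the arrays' centring and fit.

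Losing a Hoxd copy on the Hoxa-null background, AKDH against AKO, called 0 genes. The difference between the 2 effects, AHDK minus DKO less AKDH minus AKO, called 0 of 19938 genes (limma, adjusted p below 0.05), and 1275 genes (6.39%) had an unadjusted p below 0.05. Rxfp2 had effects of -2.60 and -0.53, a difference of -2.07 (SE 0.35, adjusted p = 0.275). Kap had effects of 3.40 and 0.19, a difference of 3.22 (SE 0.57, adjusted p = 0.334). Ptgs2 had effects of 2.30 and -0.97, a difference of 3.27 (SE 0.55, adjusted p = 0.275). A different response to the 2 copies was thus not shown for any gene.

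The loss of a Hoxa copy on the Hoxd-null background was also measured in vas deferens, where 73 genes (0.366%) were called in AHDK against DKO. The difference between the tissues was called for 15 genes (0.0752%), and 1266 (6.35%) had an unadjusted p below 0.05. All 5 genes called in uterus except Smpd3 were among the 15. The difference between the tissues uses the same uterus arrays, so this overlap is not independent of the uterus calls. Kap had an effect of -0.04 in vas deferens, and Rxfp2 had -0.49, Slc26a7 0.45 and Cldn8 -0.05, none of them called there. Uterus and vas values are centred on different arrays, so only the effects were compared. Leaving out uterus DKO array 1 raised the count from 15 to 131, leaving out uterus AHDK array 2 gave 27, and leaving out vas deferens AHDK array 2 gave 27. It was 9 without uterus AHDK array 3, 9 without vas deferens AHDK array 1 and 9 without vas deferens DKO array 1.

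**Figure D5:**
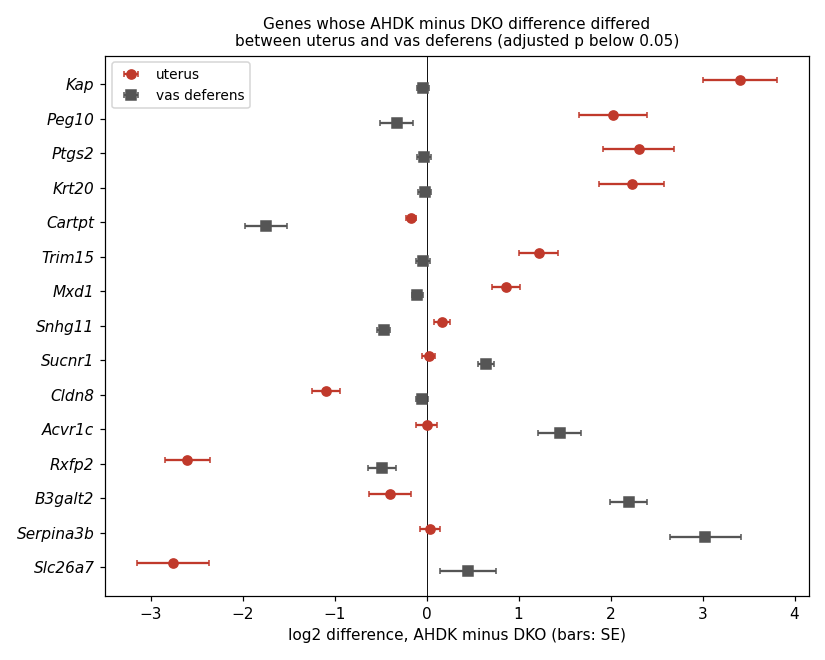
AHDK minus DKO log2 differences (horizontal axis, bars are SE) in uterus (red circles) and vas deferens (grey squares) for the 15 genes whose difference was called between the tissues, 1 row a gene. Kap, Peg10, Ptgs2, Krt20, Trim15, Mxd1, Cldn8, Rxfp2 and Slc26a7 differ from 0 mainly in uterus, and Cartpt, Snhg11, Sucnr1, Acvr1c, B3galt2 and Serpina3b mainly in vas deferens.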

How the data were processed

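RNA from 42 mouse reproductive tract tissues was measured on Affymetrix arrays, per the labels' protocols from 300 ng of total RNA made into biotin-labelled cDNA. The authors deposited 28856 probe sets as log values, taken here as log2. The sources used here do not state their base, summarisation or normalisation. Each probe set has a median of exactly 0 over the 21 female and over the 21 male arrays (read from the values), so absolute signal, detection and signal over background are lost. Medians of the 15 uterus arrays lay between -0.0233 and 0.0371 and their SDs between 0.187 and 0.374. Precision is limited by the number of arrays.

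The probe annotation gave 21789 probe sets 1 gene symbol, 1621 several and 5446 none. By gene ID, 21698 matched RefSeq (GRCm38.p6), used for current symbols. Probe sets of a gene were averaged (19938 genes, 999 with several). Groups came from the labels. limma 3.58.1 in R 4.3.3 (lmFit, eBayes) was fitted on the 15 uterus arrays (30 for uterus against vas deferens), with 10 residual degrees of freedom and a prior of 2.05 for the uterus. It was tested on simulated data. P-values were adjusted over all genes.

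The groups compared, the gene lists and the members were chosen with earlier results of these data known. Genes were named by a rule: the 6 targeted genes, up to 15 rises and 15 falls that were called or, filling up, not called but with an absolute difference of at least 1 and no overlap, the called members of each list or else the 2 with the smallest p, and the genes whose effects differed most between backgrounds or tissues. Uncharacterised names were passed over, and genes outside the rule are said to be chosen after their values were seen. Replicate numbers were not used to pair the arrays in the main fit, and whether they pair them is not known. Same-numbered AHDK and DKO arrays correlated by 0.328, 0.082 and -0.197 after group means were removed. The mean of 353 small RNA genes, a sign of RNA quality, overlapped between AHDK (-0.07 to 0.07) and DKO (-0.04 to 0.05), and both lay below the WT uteri (0.20 to 0.29).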

Additional observations from a re-analysis of the deposited data

Results flagged for a closer look

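The effect of losing the Hoxa copy differed between uterus and vas deferens in 15 genes by limma's interaction term (adjusted p below 0.05). The values are uterus effect minus vas deferens effect. In 9 of them the larger effect was in uterus: Kap 3.44, Peg10 2.35, Ptgs2 2.33, Krt20 2.25, Trim15 1.26 and Mxd1 0.97 on the positive side, and Slc26a7 -3.21, Rxfp2 -2.12 and Cldn8 -1.05 on the negative side. In the other 6 the larger effect was in vas deferens, with Serpina3b at -2.99 (effects of 0.04 in uterus and 3.03 in vas deferens), B3galt2 at -2.60, Acvr1c at -1.44, Sucnr1 at -0.63, Snhg11 at 0.63 and Cartpt at 1.57 (effects of -0.17 in uterus and -1.74 in vas deferens).

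In 4 named genes the AHDK arrays lay below all DKO arrays in uterus and above all DKO arrays in vas deferens. Their uterus effects were -1.71 for Adam12, -1.03 for Srpx2, -1.58 for Chrdl2 and -0.98 for Wnt5a, and their vas deferens effects were 0.18, 0.44, 0.50 and 0.43. The limma test of the difference did not call them (adjusted p = 0.157, 0.095, 0.213 and 0.142, in the same order of genes).

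Of 7067 probe sets with no gene symbol or several, 2 were called in AHDK against DKO when all 28856 probe sets were fitted (limma adjusted p = 0.0435 for both), and 400 had an unadjusted p below 0.05. Probe set 10598085 read 0, -0.18 and -0.44 in AHDK, against 1.06, 0.85 and 0.80 in DKO, a difference of -1.11. Probe set 10598087 read 0.07, -0.29 and -0.49 in AHDK, against 1.05, 0.97 and 1.05 in DKO, a difference of -1.26. Their genes are not named here.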

How the results depend on the processing

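The count of 5 called genes in uterus AHDK against DKO became 1 with only the 6 AHDK and DKO arrays (none of the 5), 18 with all 21 female arrays (4 of the 5), 3 after quantile normalization (2 higher, 1 lower, 2 of the 5), 11 among genes with an SD above the median, 3 with the small RNA mean as covariate and 1164 with array weights (456 higher, 708 lower, all 5 among them). It was 4 with array medians set to 0, 5 with the probe set of largest SD, 4 with robust eBayes, 4 with probe sets in place of genes and 5 with the replicate number as a block (3 higher, 2 lower, 3 of the 5). Whether the numbers pair the arrays is not known. Leaving out 1 array gave 1 to 71. The 6-array fit has fewer samples than the main fit, and the cause of these changes was not tested.

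The count of 15 for uterus against vas deferens became 24 with only the 12 AHDK and DKO arrays, 25 after quantile normalization (7 higher, 18 lower, against 8 and 7), 27 among genes with an SD above the median, 16 with the replicate block, and 9 to 131 with 1 array left out. The count of 0 for the Hoxa copy against the Hoxd copy became 3 with the replicate block and 0 to 4 with 1 array left out, 4 without AKDH replicate 2 and 4 without DKO replicate 1. Over the named genes and settings, 1413 values kept their direction and side of the threshold, 105 became called, 33 lost a call and 7 moved. Of single genes not called, 3 changed sign in some setting (Hoxa9, Hoxd10 and Serpina3b), none by a call. A filter on dim probe sets could not be run, as signal over background is unknown.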
